A study of Rattus norvegicus with 8 samples.

Results

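The genes described here are the laminin chains, the integrin subunits and the main proteins that join them in a basement membrane, in astrocytes of Sprague Dawley rat pups exposed to melanoma. They were chosen by name: every laminin chain and numbered integrin subunit in the count table, plus Itgav, Itgax, Nid1, Nid2, Agrn, Dag1 and Fn1. This gave 37 rows of 28546, and Itgam and Hspg2, which the choice also names, are not analysed here. Of the 37 genes, 29 held enough counts to be tested, among 14445 tested genes in all. The 37 genes together took 0.397% to 0.440% of all counts in sh-APP libraries, 0.407% to 0.426% in anti-Abeta libraries and 0.382% to 0.388% in control libraries. The ranges of sh-APP and anti-Abeta libraries lay above that of control and overlapped each other.

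RNA-seq was measured in 8 libraries of 3 groups. In the sh-APP group (n = 3) the exposure was to 12-273 BM melanoma cells, a line whose cells here carried a hairpin against the gene of the amyloid precursor protein. In the anti-Abeta group (n = 3) the melanoma cells carried a scrambled hairpin, and an anti-Abeta antibody (against amyloid beta) was present. In the control group (n = 2) the melanoma cells carried the scrambled hairpin without the antibody. All groups were thus exposed to melanoma, the hairpin was in the melanoma cells and not in the astrocytes, and a single hairpin and a single antibody stand for each arm. The labels give the exposure in differing ways, as a culture together with melanoma cells, as 24 h in their medium, and as medium of astrocytes put on melanoma cells, and the one that applied was not given in the sources used here. Those labels do not name separate cultures behind the libraries of a group, so p-values reflect the spread among these libraries alone, which may be technical.

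Laminins are trimers of an α, a β and a γ chain that polymerise on the cell surface into the sheet on which a basement membrane is built. Nidogens bind the γ1 chain and tie laminin to collagen IV, and agrin and perlecan are heparan sulfate proteoglycans that bind laminin and cell receptors. Cells hold on to the sheet through integrins, which are pairs of an α and a β subunit, and through dystroglycan, whose sugar chains bind laminin. In the brain, astrocyte end-feet rest on such a sheet around vessels and below the pia, and astrocytes are a source of laminin chains there.

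Library totals lay between 34250464 and 47831595 counts, and levels are given as CPM, that is counts scaled to one common library total after TMM factors. Anti-Abeta replicate 2 stood apart from its group: its pairs differed by 30.5 and 45.4 times counting noise (chi-square per degree of freedom), against at most 20.2 for the other pairs within groups. Astrocyte markers were abundant in every library, at 17053 to 19545 CPM summed in sh-APP, 13928 to 14931 CPM in anti-Abeta and 15801 to 16165 CPM in control. Markers of vessel cells were low. The endothelial list summed to 8.61 to 10.8 CPM in sh-APP, 7.71 to 8.93 CPM in anti-Abeta and 6.08 to 6.70 CPM in control. Cldn5 was at 0 in every group. Of 5 tested markers 2 were higher and 0 lower in sh-APP against control (40% and 0%, against 25.8% and 27.9% of all). The list of pericyte, smooth muscle and fibroblast markers summed to 49.0 to 52.5 CPM in sh-APP, 45.4 to 61.0 CPM in anti-Abeta and 47.6 to 56.1 CPM in control. These sums hide opposite differences. In sh-APP against control, 2 of its 8 tested markers were higher and 1 lower (25% and 12.5%, against 25.8% and 27.9% of all). Means in sh-APP and control were 10.5 and 5.50 CPM for Pdgfrb and 18.9 and 11.1 CPM for Col1a1. For Col3a1 they were 14.4 and 26.3 CPM. In anti-Abeta against control no marker of this list was called. In bulk RNA, fewer cells of a type and less RNA per cell cannot be told apart.

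In sh-APP against control, 11 of the 29 tested genes passed the threshold (37.9%, against 53.7% of all tested genes). The 9 that passed upwards were the laminin chains Lamb2, Lama5 and Lamc1, agrin, fibronectin and the integrin subunits Itgb5, Itga5, Itga3 and Itga7. They were 31.0% of the tested members, against 25.8% of all tested genes called higher. The 2 that passed downwards were Itgb1 and Nid1, 6.90% of the tested members, against 27.9% of all tested genes called lower. The median log2 fold change was 0.49 over the 29 genes and 0.03 over all tested genes. In anti-Abeta against control, 8 passed (27.6%, against 29.2% of all tested genes), 7 of them upwards (24.1%, against 12.7% of all tested genes): Lamb2, Lama5, Lamc1, Agrn, Itgb5, Itga5 and Itga7. Itgb1 alone passed downwards (3.45%, against 16.6% of all tested genes), and the median was 0.27 over the 29 genes and 0.03 over all. In sh-APP against anti-Abeta, 8 passed (27.6%, against 26.1%), 3 of them upwards (Lamb2, Itgb5 and Fn1; 10.3%, against 10.1% of all tested genes) and 5 downwards (Itgb1, Itgav, Itga7, Nid1 and Nid2; 17.2%, against 16.0%). The shares of members called in that comparison were near those of all genes. Calls are those of the quasi-likelihood test of edgeR at a Benjamini-Hochberg adjusted p of 0.05 over all tested genes, and both arms were set against the same 2 control libraries.

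The groups of the first comparison did not overlap for 16 of the 29 genes with sh-APP higher (35.7% of all tested genes) and for 5 with sh-APP lower (35.0% of all). For anti-Abeta and control the counts were 14 higher (27.9% of all) and 4 lower (27.0% of all). Between sh-APP and anti-Abeta they were 5 higher (19.2% of all) and 5 lower (22.1% of all). Which scaling was used bears on these counts. With library totals and no composition factor, the median log2 fold change of all genes moved to 0.23 in sh-APP against control and 0.18 in anti-Abeta against control, and the calls became 16 higher and 1 lower of the 29 members in the first (35.8% and 21.4% of all tested genes) and 12 higher and 1 lower in the second (24.9% and 9.81% of all).

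**Figure D1:**
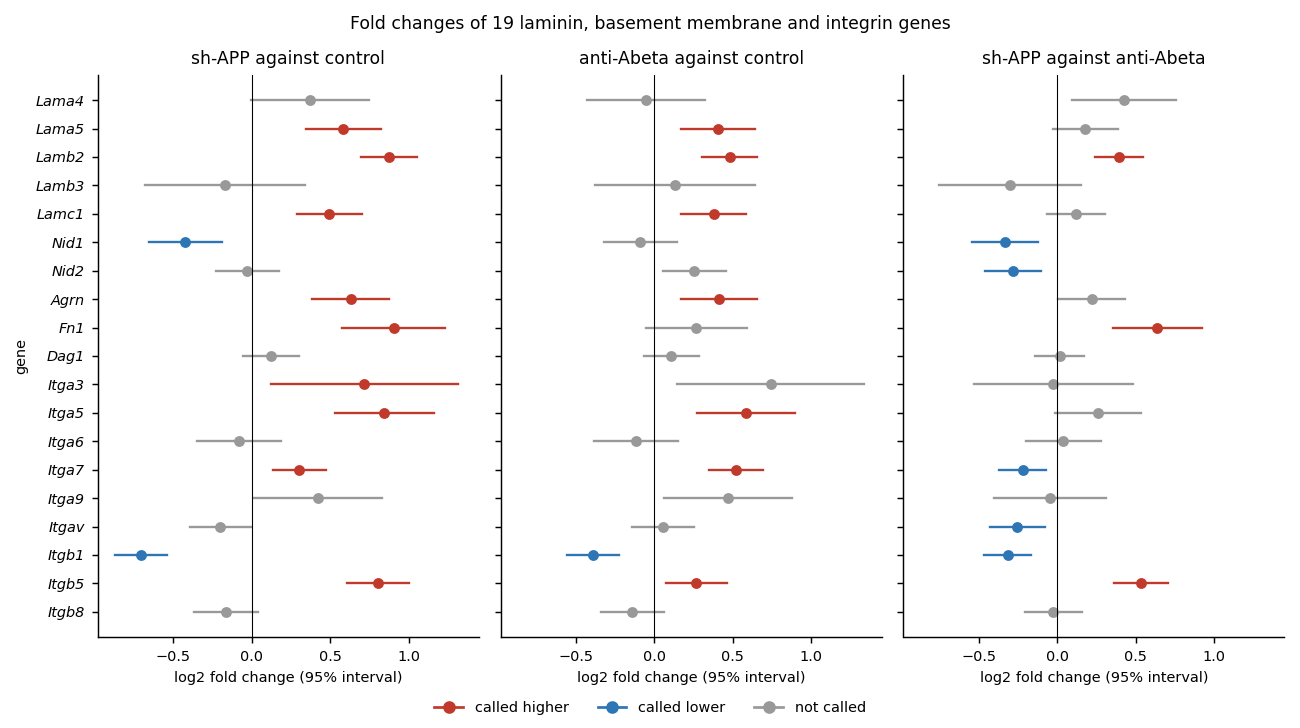
Log2 fold changes of the 19 genes that reached 5 CPM in a group or passed the test, in 3 panels, each arm against control and sh-APP against anti-Abeta. Points are fold changes, bars are 95% confidence intervals from the fit across all genes, and colours mark genes called higher (red) or lower (blue) at an adjusted p of 0.05, with grey for no call; Lamb2 stands at 0.88 and Itgb1 at -0.70 in sh-APP against control.

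Among the laminin chains, the α5, β2 and γ1 chains were higher in both arms than in control. Lamb2, the β2 chain, had 361, 392.1 and 397 CPM in sh-APP libraries, 277, 293 and 305 CPM in anti-Abeta libraries and 197 and 221 CPM in control libraries. No group overlapped another, with sh-APP highest and control lowest. Its log2 fold change was 0.88 ± 0.08 (SE; adjusted p = 6.9e-06) in sh-APP against control, 0.48 ± 0.08 (adjusted p = 0.0028) in anti-Abeta against control and 0.39 ± 0.07 (adjusted p = 0.0025) in sh-APP against anti-Abeta. A pseudogene, Lamb2-ps1, is annotated in the rat, and how reads shared with it were counted was not given in the sources used here.

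Lamc1, the γ1 chain that nidogens bind, had 108, 127 and 128 CPM in sh-APP, 103, 116 and 116 CPM in anti-Abeta and 81.5 and 90.6 CPM in control. All libraries of both arms were above both control libraries, while the arms overlapped each other. Lamc1 rose by 0.50 ± 0.10 on the log2 scale in sh-APP against control (adjusted p = 0.00086) and by 0.38 ± 0.10 in anti-Abeta against control (adjusted p = 0.0134). Lama5, the α5 chain, had 42.5, 50.2 and 50.8 CPM in sh-APP, 41.7, 39.8 and 45.4 CPM in anti-Abeta and 30.0 and 33.9 CPM in control. Again both arms lay above control and overlapped each other. Its log2 fold change was 0.58 ± 0.11 in sh-APP against control (adjusted p = 0.00068) and 0.41 ± 0.11 in anti-Abeta against control (adjusted p = 0.0174). For sh-APP against anti-Abeta, neither Lama5 (0.18, 95% interval -0.03 to 0.39) nor Lamc1 (0.12, -0.07 to 0.30) passed the test.

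The starts of Lama5 and Lamc1 are shown because both chains moved the same way in both arms. Each sequence runs 5′ to 3′ on the gene's strand from 250 bases before to 50 bases after the start, from RefSeq (GRCr8), and both are on the minus strand, Lama5 at chr3:187695925-187696224 and Lamc1 at chr13:68051937-68052236. Capitals mark GC boxes, the letters GGGCGG on either strand.
Lama5: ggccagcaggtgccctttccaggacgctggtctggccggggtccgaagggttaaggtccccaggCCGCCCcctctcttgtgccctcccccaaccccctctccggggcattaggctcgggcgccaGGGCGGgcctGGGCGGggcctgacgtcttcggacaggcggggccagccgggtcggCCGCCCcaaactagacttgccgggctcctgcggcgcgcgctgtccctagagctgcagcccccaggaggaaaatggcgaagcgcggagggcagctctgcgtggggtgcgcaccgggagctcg
Lamc1: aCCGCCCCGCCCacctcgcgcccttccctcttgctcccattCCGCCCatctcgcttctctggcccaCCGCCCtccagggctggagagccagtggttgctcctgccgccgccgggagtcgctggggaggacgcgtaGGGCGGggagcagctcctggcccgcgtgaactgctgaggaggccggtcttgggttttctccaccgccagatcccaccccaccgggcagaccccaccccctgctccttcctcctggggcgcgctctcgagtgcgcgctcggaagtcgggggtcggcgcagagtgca
Lama5 held 4 GC boxes and Lamc1 held 5, of which 2 overlap, in windows of 73.0% and 71.7% G and C. Of all 33469 promoters of that length in the table, 33.1% held a GC box, and the median share of G and C was 51.7%. Neither window held the CCAAT letters, the TATA box letters TATAAA or the AP-1 letters TGANTCA on either strand, which 37.5%, 14.2% and 7.33% of all promoters held. Lamb2 had no entry.

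The other laminin chains were low, and none passed edgeR's test in any comparison. Lama4, the α4 chain of vessel basement membranes, had 7.41, 7.42 and 7.39 CPM in sh-APP, 5.74, 6.07 and 4.75 CPM in anti-Abeta and 5.23 and 6.21 CPM in control. The sh-APP libraries lay above all others, yet the difference did not pass against control (0.37 ± 0.17 on the log2 scale, adjusted p = 0.0882) or against anti-Abeta (0.43 ± 0.15, adjusted p = 0.0582). Other settings did call Lama4 higher: against anti-Abeta with DESeq2 (adjusted p = 0.0384), limma-voom (0.0477), upper-quartile factors (0.0414) and library totals (0.0367), and against control with upper-quartile factors (0.0406) and library totals (0.0134). Lamb3, the β3 chain of epithelial laminin, had 4.79, 4.76 and 3.32 CPM in sh-APP, 6.08, 4.18 and 5.604 CPM in anti-Abeta and 5.42 and 4.24 CPM in control, and the groups overlapped. Lama2, the α2 chain known from muscle and from brain vessels, had 0.411, 1.09 and 1.33 CPM in sh-APP, 0.942, 1.10 and 0.693 CPM in anti-Abeta and 1.64 and 2.27 CPM in control. Both control libraries were the highest, with 59 and 84 counts, and the test was not passed by sh-APP (adjusted p = 0.0720) or by anti-Abeta (adjusted p = 0.0910). Limma-voom called Lama2 lower in sh-APP, as did the fit without sh-APP replicate 3, and the fit without sh-APP replicate 1 called it lower in anti-Abeta. Lamb1, the β1 chain, had 1.243 to 2.03 CPM in sh-APP, 0.958 to 2.91 CPM in anti-Abeta and 1.28 and 1.43 CPM in control. Lama1 and Lama3 stayed under 1 CPM in every library, with 48 and 101 counts over all 8, and limma-voom called Lama1 lower in sh-APP against control. Lamc3 had 42 counts over all libraries and was not tested.

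Nid1 moved apart from the laminin chains it binds. Nid1, nidogen 1, had 347, 464 and 372 CPM in sh-APP, 464, 512 and 513 CPM in anti-Abeta and 537 and 519 CPM in control. All sh-APP libraries and all anti-Abeta libraries were below both control libraries, by a wider margin in sh-APP. Nid1 fell in sh-APP against control (-0.42 ± 0.11 on the log2 scale, adjusted p = 0.0050) and in sh-APP against anti-Abeta (-0.33 ± 0.10, adjusted p = 0.0244), while anti-Abeta against control was -0.09 (95% interval -0.32 to 0.14, adjusted p = 0.569). Under library totals the first of these no longer passed (-0.22, adjusted p = 0.0787). When single libraries were left out, the call against anti-Abeta was lost for sh-APP replicate 1 (adjusted p = 0.108), for sh-APP replicate 3 (0.0941) and for anti-Abeta replicates 2 (0.0686) and 3 (0.0650).

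Nid2, nidogen 2, had 36.2, 36.2 and 36.0 CPM in sh-APP, 43.2, 40.9 and 47.4 CPM in anti-Abeta and 37.6 and 35.9 CPM in control. The anti-Abeta libraries lay above all others, and sh-APP and control overlapped. Nid2 was lower in sh-APP than in anti-Abeta (-0.28 ± 0.08, adjusted p = 0.0244), and its difference was -0.03 (95% interval -0.22 to 0.17) in sh-APP against control and 0.25 ± 0.09 (adjusted p = 0.0547) in anti-Abeta against control. The difference against control passed in anti-Abeta with DESeq2 (0.0498), upper-quartile factors (0.0293), library totals (0.0076) and the 1 CPM filter (0.0468), and without anti-Abeta replicate 2 (0.0356). The call between the arms was lost with library totals (adjusted p = 0.0745), without sh-APP replicate 1 (0.0703), 2 (0.0585) or 3 (0.0719) and without anti-Abeta replicate 3 (0.084).

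Agrn encodes agrin, which binds both laminin and dystroglycan and so links the basement membrane to that receptor. It had 66.4, 57.0 and 69.4 CPM in sh-APP, 61.0, 51.1 and 53.5 CPM in anti-Abeta and 38.9 and 44.1 CPM in control. Both arms lay above control and overlapped each other. Agrn rose by 0.63 ± 0.11 on the log2 scale in sh-APP (adjusted p = 0.00046) and by 0.41 ± 0.11 in anti-Abeta (adjusted p = 0.0179) against control. Dag1, dystroglycan itself, had 669.7, 689 and 750.2 CPM in sh-APP, 669.4, 725 and 692 CPM in anti-Abeta and 603 and 688 CPM in control. The 3 groups overlapped. The log2 difference was 0.12 (95% interval -0.05 to 0.30) in sh-APP and 0.11 (-0.07 to 0.29) in anti-Abeta against control, and neither passed the test.

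Fn1, fibronectin, is a matrix glycoprotein that α5β1 and αV integrins bind. Its level was 211, 279.6 and 332 CPM in sh-APP, 174, 162 and 192 CPM in anti-Abeta and 144 and 149 CPM in control. The groups did not overlap, and the sh-APP libraries spread more widely than the others. Fn1 rose in sh-APP against control (0.90 ± 0.15 on the log2 scale, adjusted p = 0.00028) and against anti-Abeta (0.64 ± 0.13, adjusted p = 0.0047), and did not pass in anti-Abeta against control (0.27, 95% interval -0.05 to 0.59, adjusted p = 0.191).

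**Figure D2:**
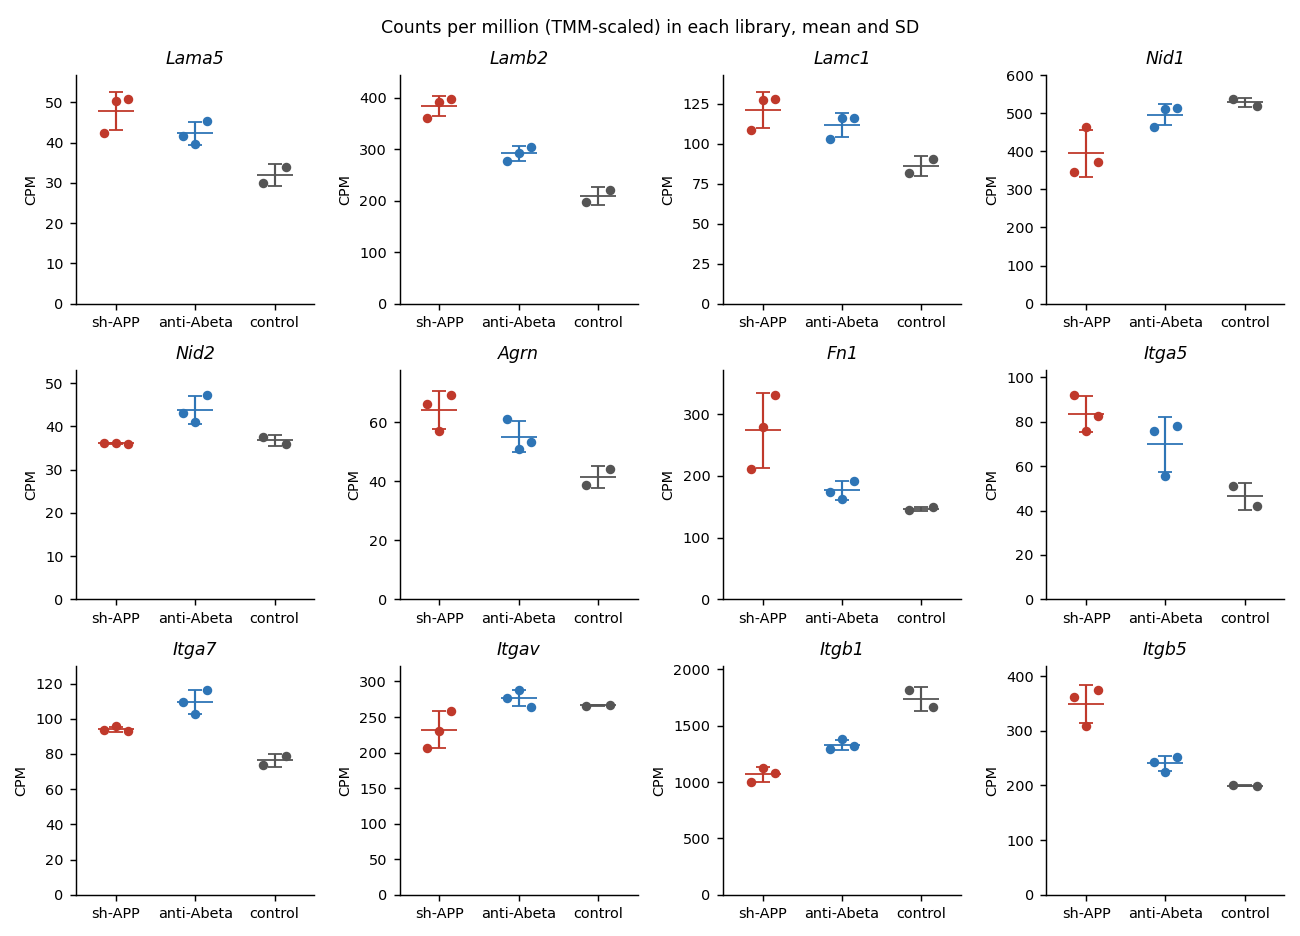
CPM after TMM scaling (vertical axis, each panel with its own scale from 0) of 12 laminin, basement membrane and integrin genes in each library of the sh-APP, anti-Abeta and control groups. Points are libraries, horizontal lines are group means and bars are SD; Itgb1 lies at 998 to 1125 CPM in sh-APP, 1289 to 1379 CPM in anti-Abeta and 1666 to 1816 CPM in control.

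Itgb1 encodes the β1 subunit, which pairs with most of the laminin- and collagen-binding α subunits. Its level was 998, 1125 and 1085 CPM in sh-APP, 1289, 1379 and 1319.7 CPM in anti-Abeta and 1816 and 1666 CPM in control. No group overlapped another, with sh-APP lowest and control highest, the reverse of the order for Lamb2. Itgb1 fell in sh-APP (-0.70 ± 0.08 on the log2 scale, adjusted p = 1.5e-05) and in anti-Abeta (-0.39 ± 0.08, adjusted p = 0.0046) against control, and was lower in sh-APP than in anti-Abeta (-0.31 ± 0.07, adjusted p = 0.0064). In a gene table of a later rat assembly (GRCr8) Itgb1 overlaps another protein-coding gene, LOC134483511, and strandedness was not given in the sources used here, so reads from the pair cannot be told apart.

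Itga5, the α5 subunit that joins β1 in the classical fibronectin receptor, moved the other way. It had 92.3, 75.8 and 82.7 CPM in sh-APP, 75.7, 55.6 and 78.1 CPM in anti-Abeta and 50.8 and 42.2 CPM in control. Every library of both arms was above both controls, and the arms overlapped. The log2 fold change was 0.84 ± 0.14 in sh-APP (adjusted p = 0.00036) and 0.59 ± 0.14 in anti-Abeta (adjusted p = 0.0117) against control.

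Itga7, the laminin-binding α7 subunit, had 93.3, 95.8 and 93.3 CPM in sh-APP, 109.5, 103 and 116 CPM in anti-Abeta and 73.6 and 79.0 CPM in control. The groups did not overlap, and here anti-Abeta was the highest. Itga7 rose by 0.30 ± 0.08 on the log2 scale in sh-APP (adjusted p = 0.0055) and by 0.52 ± 0.08 in anti-Abeta (adjusted p = 0.0023) against control, and was lower in sh-APP than in anti-Abeta (-0.22 ± 0.07, adjusted p = 0.0354). Without control replicate 1 the call in sh-APP against control was lost (adjusted p = 0.0570), and the call between the arms was lost under several settings, with adjusted p up to 0.132 with library totals. Itga7 overlaps the protein-coding gene Mettl7b in the GRCr8 table. In anti-Abeta against control, Itga7 was the member whose call held without each library in turn (adjusted p from 0.00041 to 0.0481).

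The α6 subunit, another laminin receptor subunit, had no call. Itga6 had 43.8, 46.4 and 47.7 CPM in sh-APP, 36.6, 49.3 and 48.2 CPM in anti-Abeta and 45.6 and 51.5 CPM in control, so the groups overlapped. Its log2 difference was -0.08 (95% interval -0.34 to 0.19) in sh-APP and -0.12 (-0.38 to 0.15) in anti-Abeta against control. Itga3, the α3 subunit, was low, at 3.35, 4.31 and 3.02 CPM in sh-APP, 3.65, 2.69 and 4.50 CPM in anti-Abeta and 2.34 and 1.998 CPM in control. Both arms lay above control. Itga3 passed in sh-APP against control (0.72 ± 0.27 on the log2 scale, adjusted p = 0.0419) and not in anti-Abeta against control (0.74 ± 0.27, adjusted p = 0.0597), with sh-APP against anti-Abeta at -0.02 (95% interval -0.53 to 0.48). The Itga3 call was lost with limma-voom (adjusted p = 0.0755), with the replicate block (0.0667) and without sh-APP replicate 1 (0.0578), sh-APP replicate 2 (0.139), anti-Abeta replicate 1 (0.0508), control replicate 1 (0.0920) or control replicate 2 (0.184). Itga9, the α9 subunit that binds tenascin C among others, had 5.61, 5.92 and 7.69 CPM in sh-APP, 7.25, 6.41 and 6.20 CPM in anti-Abeta and 4.70 and 4.86 CPM in control. The controls were lowest, and neither arm passed (adjusted p = 0.0765 for sh-APP and 0.0805 for anti-Abeta).

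The αV subunit and its β partners bind fibronectin and vitronectin, and some of the pairs bind the latent form of TGF-beta. Itgb5, the β5 subunit, had 362, 309 and 374 CPM in sh-APP, 244, 225 and 253 CPM in anti-Abeta and 199.6 and 200.1 CPM in control. No group overlapped another, and sh-APP was highest. Itgb5 rose in sh-APP against control (0.80 ± 0.09 on the log2 scale, adjusted p = 2.1e-05) and against anti-Abeta (0.54 ± 0.08, adjusted p = 0.0011). In anti-Abeta against control the call was at the margin (0.27 ± 0.09, adjusted p = 0.0416) and was lost with DESeq2's size factors (adjusted p = 0.0546), with the replicate block (0.0809) and without sh-APP replicate 1 (0.0513), without anti-Abeta replicate 1 (0.0957) or 3 (0.122), and without control replicate 1 (0.201) or 2 (0.153).

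Itgav, the αV subunit itself, had 206, 231 and 259 CPM in sh-APP, 277, 288 and 265 CPM in anti-Abeta and 266 and 267 CPM in control. All sh-APP libraries lay below the others. The difference passed against anti-Abeta (-0.25 ± 0.08 on the log2 scale, adjusted p = 0.0363) and not against control (-0.20 ± 0.09, adjusted p = 0.0797), and without sh-APP replicate 3 the difference against control passed too (-0.29, adjusted p = 0.0178). The call against anti-Abeta was lost under several settings, with adjusted p up to 0.162 when a library was left out. Itgb8, the β8 subunit by which astrocytes are known to activate TGF-beta, had 70.7, 78.7 and 88.5 CPM in sh-APP, 84.3, 79.7 and 77.8 CPM in anti-Abeta and 89.5 and 88.0 CPM in control. The sh-APP libraries overlapped control, and the log2 difference was -0.16 (95% interval -0.36 to 0.04) in sh-APP and -0.14 (-0.34 to 0.06) in anti-Abeta against control, with no call. Without sh-APP replicate 3, Itgb8 passed in sh-APP against control (-0.25, adjusted p = 0.0401). Itgb3 stayed under 1 CPM in every library, with 61 counts over all 8, and Itgb6 had 35 counts and was not tested.

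The starts of Itga5, Itgb5 and Itgb1 are shown because 2 of them rose and the third fell in both arms. Build, strand reading and length are as for the laminins, at chr7:136381256-136381555 (minus strand) for Itga5, chr11:80449324-80449623 (minus strand) for Itgb5 and chr19:73602027-73602326 (plus strand) for Itgb1, with GC boxes in capitals.
Itga5: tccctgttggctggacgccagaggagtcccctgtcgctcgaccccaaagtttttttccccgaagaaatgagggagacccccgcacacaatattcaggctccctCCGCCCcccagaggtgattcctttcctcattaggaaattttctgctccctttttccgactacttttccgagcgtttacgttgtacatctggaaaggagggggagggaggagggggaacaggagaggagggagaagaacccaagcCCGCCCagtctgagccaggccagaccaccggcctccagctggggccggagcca
Itgb5: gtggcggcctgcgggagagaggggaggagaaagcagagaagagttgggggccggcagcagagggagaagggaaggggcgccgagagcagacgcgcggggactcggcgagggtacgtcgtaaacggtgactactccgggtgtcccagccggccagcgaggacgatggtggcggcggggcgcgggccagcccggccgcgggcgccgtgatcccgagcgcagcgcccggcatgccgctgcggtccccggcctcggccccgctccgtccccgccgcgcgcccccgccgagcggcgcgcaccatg
Itgb1: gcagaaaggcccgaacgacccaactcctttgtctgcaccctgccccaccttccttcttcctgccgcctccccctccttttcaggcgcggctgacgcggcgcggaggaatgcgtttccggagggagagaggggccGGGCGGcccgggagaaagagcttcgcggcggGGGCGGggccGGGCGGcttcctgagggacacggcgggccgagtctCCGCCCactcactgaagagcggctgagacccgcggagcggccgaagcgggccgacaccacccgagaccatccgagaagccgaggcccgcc
Itga5 held 2 GC boxes, Itgb5 held 0 and Itgb1 held 4, in windows of 58.7%, 76.7% and 71.7% G and C. None of the 3 windows held the CCAAT, TATA box or AP-1 letters on either strand. Of the 37 genes, 27 had an entry; 15 of these held a GC box, 7 the CCAAT letters, 2 the TATA box and 2 the AP-1 letters, and their median share of G and C was 60.0%. The 5 printed windows were chosen, after the values were seen, from called genes whose window lies at the outer start of the gene.

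The remaining subunits were low. Itga8, a β1 partner that binds matrix proteins with an RGD motif, had 4.15, 3.49 and 3.62 CPM in sh-APP, 2.14, 2.57 and 2.65 CPM in anti-Abeta and 3.48 and 1.89 CPM in control, and no comparison passed. Itga1, a collagen-binding partner of β1, had 1.09, 1.243 and 2.11 CPM in sh-APP, 1.17, 0.856 and 0.978 CPM in anti-Abeta and 0.806 and 0.675 CPM in control. Both control libraries were lowest, with adjusted p = 0.0586 in sh-APP and 0.466 in anti-Abeta against control. Itgb4, the partner of α6 in epithelial hemidesmosomes, had 2.10, 2.62 and 2.495 CPM in sh-APP, 1.46, 2.91 and 1.77 CPM in anti-Abeta and 1.33 and 1.59 CPM in control, with no call. Itga2, another collagen-binding subunit, had 15 to 25 counts in sh-APP, 12 to 40 counts in anti-Abeta and 4 and 6 counts in control libraries. It passed in neither arm (adjusted p = 0.0584 in sh-APP and 0.0837 in anti-Abeta). Itgb2, the β subunit of white blood cells, had 11 to 29 counts in sh-APP, 10 to 27 counts in anti-Abeta and 8 and 1 counts in control, with no call. Microglia and macrophage markers summed to 11.2 to 13.9 CPM in sh-APP, 12.8 to 22.3 CPM in anti-Abeta and 12.2 to 15.8 CPM in control, with Cx3cr1 at 0 in all groups, and most of each sum was Cd68 (means of 10.4, 16.1 and 13.3 CPM in that order of groups). The others were low, and some were, like Itgb2, lowest in control: Tyrobp averaged 0.609 CPM in sh-APP, 0.347 CPM in anti-Abeta and 0.0830 CPM in control, and Csf1r 0.435, 0.363 and 0.0973 CPM. Of the 4 tested markers 1 was higher and 0 lower in sh-APP against control (25% and 0%, against 25.8% and 27.9% of all). Their median log2 fold change was 1.32 in sh-APP and 1.31 in anti-Abeta. The part of these cells in the values of Itgb2 was not tested. The untested subunits were Itga4, Itga10, Itga11, Itgax, Itgb6 and Itgb7, with 28, 16, 12, 29, 35 and 4 counts over all 8 libraries. In all, 13 of the 37 genes stayed under 1 CPM in every group mean, 6 lay from 1 to under 5 CPM and 18 reached 5 CPM.

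Because the genes are counted in the same libraries, the ratio of raw counts of a pair does not depend on how libraries are scaled. The pairs, like the lists, were chosen with earlier results of these data known. These ratios are a description with no test, and their size also holds the lengths of both transcripts, so only differences between libraries can be read. Itgb5 over Itgb1 was 0.363, 0.275 and 0.345 in sh-APP, 0.189, 0.163 and 0.191 in anti-Abeta and 0.1102 and 0.120 in control. Itga5 over Itgb1 was 0.0925, 0.0674 and 0.0762 in sh-APP, 0.0587, 0.0403 and 0.0592 in anti-Abeta and 0.0280 and 0.0254 in control. For both ratios the 3 groups were separate, with sh-APP highest and control lowest. Each sets a gene that rose over one that fell in both arms. Their order thus follows largely from the levels above and is no further support. Itga7 over Itgb1 was 0.0935, 0.0852 and 0.0860 in sh-APP, 0.0850, 0.0745 and 0.0881 in anti-Abeta and 0.0405 and 0.0475 in control, so that both arms were above control and overlapped each other.

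Within the αV group, Itgb5 over Itgav was 1.76, 1.34 and 1.45 in sh-APP, 0.878, 0.783 and 0.955 in anti-Abeta and 0.752 and 0.748 in control, again in separate ranges. Itgb8 over Itgav was 0.342, 0.341 and 0.342 in sh-APP, 0.304, 0.277 and 0.294 in anti-Abeta and 0.337 and 0.330 in control. For this ratio anti-Abeta was lowest and sh-APP lay just above control. Among the basement membrane genes, Lamb2 over Nid1 was 1.04, 0.846 and 1.07 in sh-APP, 0.597, 0.572 and 0.595 in anti-Abeta and 0.366 and 0.426 in control. Lamc1 over Nid1 was 0.313, 0.275 and 0.344 in sh-APP, 0.222, 0.227 and 0.226 in anti-Abeta and 0.152 and 0.174 in control. Both ratios separated the groups, with sh-APP highest and control lowest. Each sets a chain that was higher in both arms over Nid1, which lay lower in both. This order too follows largely from the levels above. Lamb2 over Lamc1, the β2 and γ1 chains of a same trimer, was 3.33, 3.08 and 3.10 in sh-APP, 2.69, 2.52 and 2.63 in anti-Abeta and 2.41 and 2.44 in control. Lama5 over Lamc1 was 0.392, 0.394 and 0.397 in sh-APP, 0.404, 0.343 and 0.391 in anti-Abeta and 0.368 and 0.374 in control. For that ratio anti-Abeta overlapped both other groups.

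**Figure D3:**
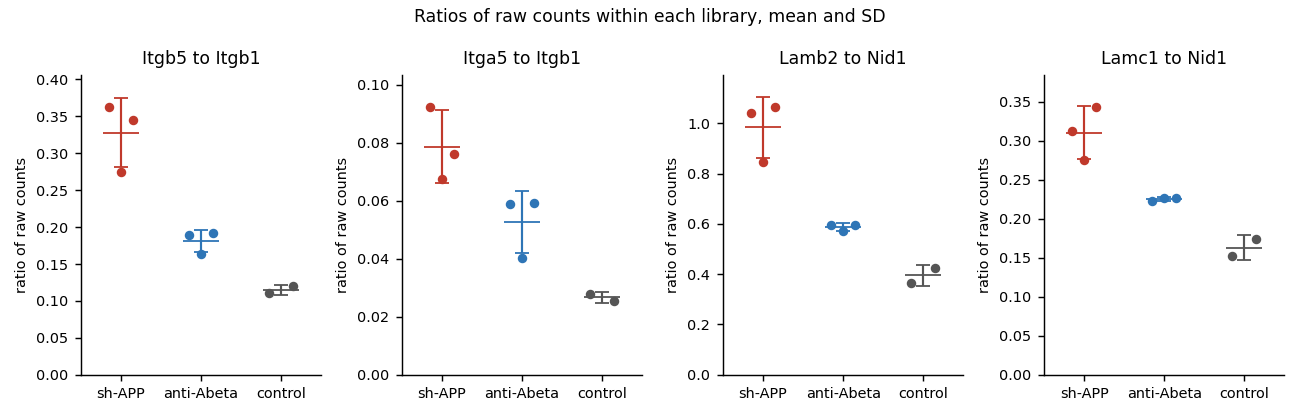
Ratios of raw counts of 2 genes within each library (vertical axis, each panel with its own scale from 0), for sh-APP, anti-Abeta and control. Points are libraries, lines are group means and bars are SD; Itgb5 over Itgb1 lies at 0.275 to 0.363 in sh-APP, 0.163 to 0.191 in anti-Abeta and 0.1102 to 0.120 in control.

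The laminin, agrin and integrin calls in anti-Abeta against control rested on a control group of 2 libraries. Without control replicate 1 the adjusted p was 0.0578 for Lamb2, 0.166 for Lamc1, 0.180 for Lama5, 0.188 for Agrn, 0.0606 for Itga5 and 0.0692 for Itgb1, and the calls upwards fell to 1 of the 29 (Itga7) while 0.359% of all tested genes were called higher. Without control replicate 2, Itga5 was also lost (adjusted p = 0.1095), and Agrn was lost without anti-Abeta replicate 1 (0.0590) and Lama5 without anti-Abeta replicate 3 (0.0580).

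Genes that work with these members were read from lists, set beside all tested genes, of which 25.8% were called higher and 27.9% lower in sh-APP, and 12.7% higher and 16.6% lower in anti-Abeta, against control. Collagens of the basement membrane had 2 of 6 tested genes higher (33.3%, against 25.8% of all) and 0 lower (against 27.9% of all) in sh-APP against control, with a median log2 fold change of 0.29, against 0.03 over all genes. These were Col4a2 (0.42 ± 0.16, adjusted p = 0.0425) and Col4a5 (0.47 ± 0.18, adjusted p = 0.0429), chains of the collagen IV network to which nidogen ties laminin. Without control replicate 1 both calls were lost (adjusted p = 0.343 for Col4a2 and 0.239 for Col4a5), as they were without sh-APP replicate 3 (0.125 and 0.163); Col4a2 was also lost without sh-APP replicate 2 (0.0944), without anti-Abeta replicate 1 (0.051) and with limma-voom (0.0501), and Col4a5 without control replicate 2 (0.0809), with the replicate block (0.054) and with DESeq2's size factors (0.050). In anti-Abeta against control the count was 2 higher (33.3%, against 12.7% of all) and 0 lower (median 0.39), among them Col18a1, the source of endostatin (0.51 ± 0.13, adjusted p = 0.0158). The Col18a1 call was lost without control replicate 1 (adjusted p = 0.214).

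The list of other basement membrane proteins also held relatives of laminin, such as netrins, that are not all basement membrane components. It had 8 of 19 tested genes higher and 1 lower in sh-APP against control (42.1% and 5.26%, against 25.8% and 27.9% of all, median 0.71). For anti-Abeta the counts against control were 3 higher and 1 lower (15.8% and 5.26%, against 12.7% and 16.6% of all; median 0.25). Fbln2 and Fbln1, fibulins that bind laminin and nidogen, rose by 1.53 ± 0.20 and 0.96 ± 0.13 on the log2 scale in sh-APP (adjusted p = 4.9e-05 and 5.4e-05). Sparc, a secreted collagen-binding glycoprotein, rose by 0.71 ± 0.07 (adjusted p = 7.6e-06) and Ntng2, the membrane-anchored netrin G2, by 0.91 ± 0.17 (adjusted p = 0.00066). In anti-Abeta, Pxdn, the peroxidasin that crosslinks collagen IV, was higher (0.50 ± 0.16, adjusted p = 0.0336) and was lost with the replicate block (0.0766) and without anti-Abeta replicate 1 (0.076), anti-Abeta replicate 3 (0.0962), control replicate 1 (0.101) or control replicate 2 (0.195). The call downwards in sh-APP was Smoc1, named after its value was seen (-0.71 ± 0.15, adjusted p = 0.0014). Smoc2, a secreted calcium-binding relative of Sparc, had 13, 21 and 28 counts in sh-APP, 1, 1 and 0 counts in anti-Abeta and 13 and 5 counts in control. It was lower in anti-Abeta than in control (adjusted p = 0.0214), and the call was lost without anti-Abeta replicate 3 (0.0665) or control replicate 1 (0.206), while DESeq2 gave Smoc2 no adjusted p. The sum over the list was 2490 to 2600.1 CPM in sh-APP, 1800 to 1864 CPM in anti-Abeta and 1472 to 1511 CPM in control. Its ranges did not overlap. Most of the sum was Sparc, at means of 1854, 1353 and 1136 CPM in that order of groups, and Fbln2, at 535, 292 and 185 CPM.

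Receptors other than integrins, with the dystroglycan complex, had 8 of 20 higher and 5 lower in sh-APP (40.0% and 25.0%, against 25.8% and 27.9% of all; median 0.15). In anti-Abeta they had 4 higher and 3 lower (20% and 15%, against 12.7% and 16.6% of all; median 0.03). Sdc2, the heparan sulfate proteoglycan syndecan 2, fell by 1.02 ± 0.08 on the log2 scale in sh-APP (adjusted p = 4.1e-06), while Gpc1, glypican 1, rose by 0.85 ± 0.09 (adjusted p = 1.6e-05). Rpsa, listed as the laminin receptor and also a protein of the small ribosomal subunit, rose by 0.58 ± 0.08 (adjusted p = 5.4e-05). In anti-Abeta, Sdc3, syndecan 3, was higher (0.48 ± 0.11, adjusted p = 0.0102), and the call was lost without control replicate 1 (0.0529) or 2 (0.0953). Sgce, ε-sarcoglycan of the dystroglycan complex, was lower in anti-Abeta (-0.28 ± 0.08, adjusted p = 0.0235), and was lost with library totals (0.233), with the replicate block (0.0632) and without anti-Abeta replicate 1 (0.0538), anti-Abeta replicate 3 (0.0738) or control replicate 1 (0.185).

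Enzymes that build the laminin-binding sugar of dystroglycan had 7 of 18 higher and 5 lower in sh-APP (38.9% and 27.8%, against 25.8% and 27.9% of all; median 0.28). In anti-Abeta they had 5 higher and 3 lower (27.8% and 16.7%, against 12.7% and 16.6% of all; median 0.16), so the share called lower was that of all genes in both arms. Pomgnt2 and Pomgnt1, which add N-acetylglucosamine to its O-mannose, rose by 0.84 ± 0.11 and 0.46 ± 0.07 in sh-APP (adjusted p = 5.9e-05 and 0.00023). Dpm1, a subunit of the enzyme that makes the mannose donor for this and other sugars, fell by 1.26 ± 0.09 (adjusted p = 4.1e-06). Pomt1, which adds the first mannose, was higher in anti-Abeta (0.31 ± 0.08, adjusted p = 0.0142), a call lost without control replicate 1 (0.147). Dpm2, another subunit of that enzyme, was higher in anti-Abeta too (0.37 ± 0.09, adjusted p = 0.0132), and was lost without control replicate 1 (0.0975) or 2 (0.0714).

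Adaptors that join integrins to actin had 13 of 27 higher and 6 lower in sh-APP (48.1% and 22.2%, against 25.8% and 27.9% of all; median 0.22). In anti-Abeta they had 11 higher and 2 lower (40.7% and 7.41%, against 12.7% and 16.6% of all; median 0.15). Tns1, tensin 1, rose by 1.42 ± 0.18 on the log2 scale in sh-APP (adjusted p = 3.7e-05), Flna, filamin A, by 0.77 ± 0.11 (adjusted p = 7.5e-05) and Tln1, talin 1, by 0.66 ± 0.10 (adjusted p = 0.00011). Ptk2, focal adhesion kinase, fell by 0.59 ± 0.08 (adjusted p = 9.8e-05). In anti-Abeta, Actn4, α-actinin 4, was higher (0.36 ± 0.07, adjusted p = 0.0038) and so was Tns2, tensin 2 (0.62 ± 0.13, adjusted p = 0.0062), and both were lost without control replicate 1 (adjusted p = 0.0598 and 0.0977).

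Other ligands of integrins had 5 of 16 higher and 4 lower in sh-APP (31.2% and 25.0%, against 25.8% and 27.9% of all; median 0.17). In anti-Abeta they had 2 higher and 3 lower (12.5% and 18.8%, against 12.7% and 16.6% of all; median 0.03), so the shares were near those of all genes in both arms. Thbs2, thrombospondin 2, rose by 1.47 ± 0.26 in sh-APP (adjusted p = 0.00047). Postn, periostin, fell by 1.49 ± 0.18 (adjusted p = 3.7e-05), Edil3, a secreted αV ligand, by 1.21 ± 0.13 (adjusted p = 1.7e-05) and Vcam1, a ligand of α4β1, by 0.72 ± 0.14 (adjusted p = 0.00073). Mfge8, the secreted αV ligand that bridges to phosphatidylserine, was higher in anti-Abeta (0.37 ± 0.07, adjusted p = 0.0047), a call lost without control replicate 1 (0.0601). Emilin1, a matrix glycoprotein that α4β1 and α9β1 bind, was higher as well (0.35 ± 0.10, adjusted p = 0.0194), and was lost without anti-Abeta replicate 3 (0.0569) or control replicate 1 (0.249).

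Genes of TGF-beta and of proteins that bind its latent form had 3 of 8 higher and 1 lower in sh-APP (37.5% and 12.5%, against 25.8% and 27.9% of all, median 0.61). In anti-Abeta they had 2 higher and 1 lower (25.0% and 12.5%, against 12.7% and 16.6% of all; median 0.47). Ltbp4 and Ltbp3, which anchor latent TGF-beta in the matrix, rose by 1.242 ± 0.09 and 1.13 ± 0.10 on the log2 scale in sh-APP (adjusted p = 4.1e-06 and 5.0e-06). Tgfb2 fell by 1.35 ± 0.16 (adjusted p = 2.6e-05), and Tgfb3 was higher (0.61 ± 0.20, adjusted p = 0.0210), a call lost without sh-APP replicate 1 (0.0536), sh-APP replicate 3 (0.0753), control replicate 1 (0.0774) or control replicate 2 (0.103). Of the 3 tested integrin genes with names outside the choice, 1 was higher and 0 lower in sh-APP, Itga2b, the platelet αIIb subunit (0.53 ± 0.17, adjusted p = 0.0186), and the call was lost without control replicate 1 (0.19).

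Between sh-APP and anti-Abeta, the other basement membrane proteins had 7 of 19 higher and 1 lower (36.8% and 5.26%, against 10.1% and 16.0% of all), with a median log2 fold change of 0.42, against -0.01 over all genes. The remaining lists had medians from -0.11 for the collagens (1 of 6 higher and 1 lower) to 0.19 for the latent TGF-beta genes (2 of 8 higher and 1 lower). Shares called higher and lower were 30% and 15% for the receptors other than integrins. They were 25% and 12.5% for the other ligands and for the latent TGF-beta genes. The adaptors had 18.5% and 11.1%, the collagens 16.7% each way and the dystroglycan enzymes 5.56% and 22.2%. No integrin gene outside the choice was called.

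**Figure D4:**
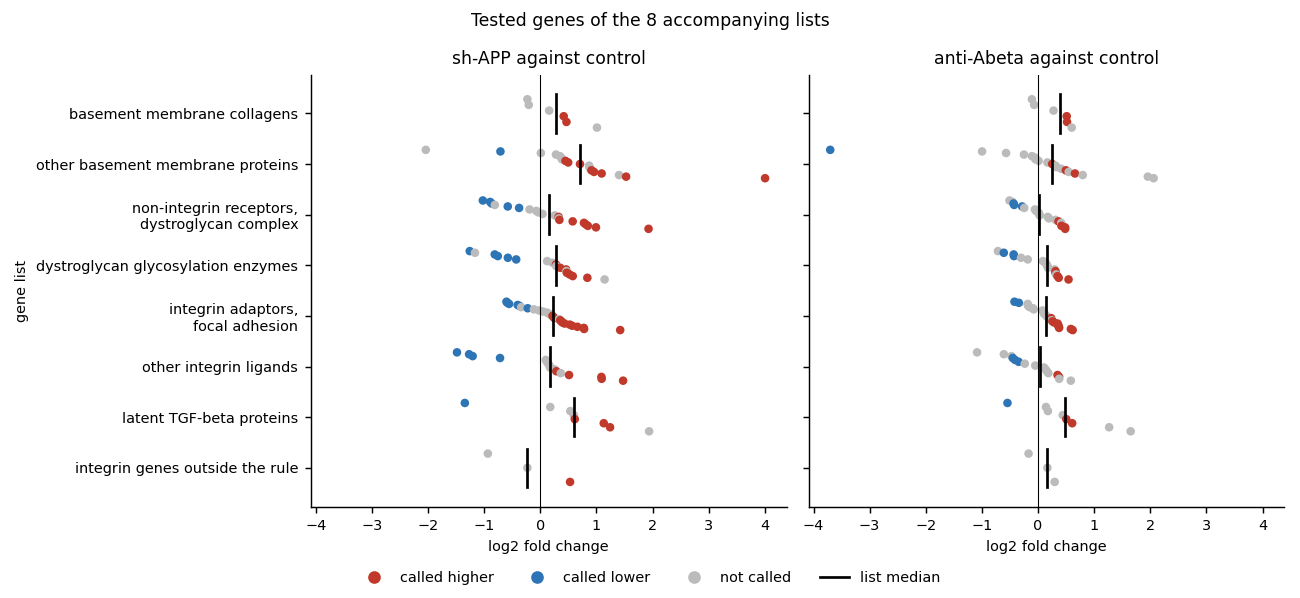
Log2 fold changes (horizontal axis) of the tested genes of each of the 8 lists, in sh-APP against control on the left and anti-Abeta against control on the right. Each point is a gene, red where called higher, blue where called lower and grey where not called, and the black bar is the list's median; that of the other basement membrane proteins stands at 0.71 in sh-APP and 0.25 in anti-Abeta.

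Markers of other cell types differed between the groups, and their part in the values above was not tested. Neuronal markers summed to 152 to 164 CPM in sh-APP, 224 to 289.9 CPM in anti-Abeta and 331 to 357 CPM in control. Map2 and Snap25 carried that sum, at means of 104 and 23.0 CPM in sh-APP, 173 and 47.8 CPM in anti-Abeta and 246 and 68.3 CPM in control. Of the 7 neuronal markers 3 were lower and 3 higher in sh-APP against control (42.9% each, against 27.9% and 25.8% of all). Among the higher ones was Stmn2, at 8.23 CPM in sh-APP, 1.57 CPM in anti-Abeta and 1.43 CPM in control. Those of the oligodendrocyte lineage summed to 3144 to 3299 CPM in sh-APP, 3140.1 to 3483 CPM in anti-Abeta and 2667 to 2780.0 CPM in control. That difference was mostly Olig1, at means of 2263 CPM in sh-APP, 2263 CPM in anti-Abeta and 1819 CPM in control. In sh-APP against control 1 of 9 was higher and 2 were lower (11.1% and 22.2%, against 25.8% and 27.9% of all). The lower ones were Pdgfra (16.9 CPM in sh-APP, 29.6 CPM in anti-Abeta and 33.7 CPM in control) and Ugt8 (1.13, 3.71 and 5.86 CPM). The list of melanocyte and melanoma markers, in which 4 of 8 genes were tested, summed to 2229 to 2432 CPM in sh-APP, 3540.2 to 3832 CPM in anti-Abeta and 4335 to 4417 CPM in control, with Tyrp1 at 0 in both arms and Mlana at 0 in control. Gpnmb alone, which cells other than melanocytes also express, gave means of 2247 CPM in sh-APP, 3609 CPM in anti-Abeta and 4218 CPM in control. Slc24a5 and Mitf stood in the same order, at means of 34.5, 63.2 and 115 CPM and of 27.0, 32.4 and 41.5 CPM. Tyr, Tyrp1, Dct, Mlana and Pmel stayed under 2 CPM in every library. Of the 4 tested markers 0 were higher and 3 lower in sh-APP against control (0% and 75%, against 25.8% and 27.9% of all). In anti-Abeta against control 0 were higher and 2 lower (0% and 50%, against 12.7% and 16.6% of all). Astrocyte markers had 7 of 10 higher and 1 lower in sh-APP against control (70% and 10%, against 25.8% and 27.9% of all). In anti-Abeta against control 4 of them were higher and 3 lower (40% and 30%, against 12.7% and 16.6% of all). By the GRCr8 annotation, 18 of the 37 genes overlap another gene, 5 of them a protein-coding one (Itga1, Itga4, Itga7, Itgb1 and Itgb7), so their counts are less certain.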

How the data were processed

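The authors deposited raw counts, with 1 row for each gene symbol, made from RNA-seq reads and checked here to be whole numbers. The submitters' processing notes list rn6 as the genome build, STAR 2.6.0a, HTSeq 0.11.1 and Trimmomatic 0.36 as tools, and beside them FastQC 0.11.7, DESeq2 1.24.0 and SAMtools 1.9, without settings. Strandedness and the treatment of reads with several matches were not given in the sources used here. Every column of the table belongs to a labelled library, so 0 columns were left unused, and 26 gene symbols had been turned into dates.

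The 8 libraries were fitted together (edgeR 4.0.16, R 4.3.3). Group was the sole term, which left 5 residual degrees of freedom. Genes passed filterByExpr with a minimum count of 10 and a minimum total of 15. For each comparison the test was edgeR's quasi-likelihood test (robust), with Benjamini-Hochberg adjustment over all tested genes and a threshold of 0.05. Fold changes are log2, with the standard error (SE) taken as the fold change over the square root of the F statistic. They are given for the 19 members that reach a group mean of 5 CPM or passed a test. From each list the called genes with the smallest p are named, up to 4 in sh-APP and 2 in anti-Abeta against control. Genes already named in the first arm are not named again in the other. A few genes that the choice of members or this rule would name are not reported here. Members and lists were chosen with earlier results of these data known, and so were the tests.

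Alternatives were DESeq2 1.42.0, limma-voom (limma 3.58.1), other size factors, other filters, the non-robust spread, fits of the compared groups alone, a block for the replicate number, and fits that left out 1 library each. The script was tested on simulated data with known changes. Over the 3 comparisons it recovered 46.9% to 53.1% of changes of 1.5-fold, 71.6% to 76.1% of 2-fold and 76.6% to 82.8% of 4-fold. A missing call therefore does not exclude a change of such a size. Replicate numbers are shared between groups but have no stated common origin, so the block is an alternative only. Same-numbered sh-APP and anti-Abeta libraries deviated together weakly for numbers 1 and 2 (r = 0.105 and 0.098). For number 3 they did not (r = -0.0056). Promoter windows are RefSeq's on GRCr8, matched by symbol. No genome of rn6 was used here, so no coordinates of the counted genes are given and no levels per length.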

Additional observations from a re-analysis of the deposited data

How the results depend on the processing

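Counts of called members by setting were as follows. Percentages in brackets are the shares of all tested genes called the same way. In sh-APP against control the members called higher numbered 9 (25.8%), and became 14 with upper-quartile factors (30%) and 16 with library totals (35.8%). Those called lower numbered 2 (27.9%), and became 4 with limma-voom (28%) and 1 with library totals (21.4%). In anti-Abeta against control the members called higher numbered 7 (12.7%), and became 12 with library totals (24.9%). The 1 called lower (16.6%) became 2 with no low-count filter (11.8%). In sh-APP against anti-Abeta the 5 called lower (16%) became 3 with upper-quartile factors (14.3%) and 2 with library totals (13.6%). When libraries were left out in turn, the counts higher and lower ran from 8 to 10 and 2 to 5 in sh-APP against control, 1 to 9 and 0 to 2 in anti-Abeta against control, and 3 to 4 and 1 to 3 in sh-APP against anti-Abeta. Members with no call that gained one in some setting were Dag1, Itga1, Itga2, Itga8, Itga9, Itgb4 and Lama4 (higher) and Itgav, Itgb8, Lama1 and Lama2 (lower) in sh-APP against control, Dag1, Fn1, Itga3, Itga9 and Nid2 (higher) and Itga4 and Lama2 (lower) in anti-Abeta against control, and Agrn, Itga5, Itga8 and Lama4 (higher) in sh-APP against anti-Abeta. The cause was not tested, beyond the shift of all genes under library totals. With an sh-APP or anti-Abeta library left out, the shares of all tested genes called higher and lower also varied. They ran from 22.9% to 26.9% and 25.9% to 28.5% in sh-APP against control. For anti-Abeta against control they ran from 6.49% to 13.8% and 11.6% to 19.5%. Between sh-APP and anti-Abeta they ran from 5.19% to 9.49% and 10.4% to 15.4%. With 2 control libraries, a fit without either assumes that the lone library varies like the other groups.

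With replicate number as a block, 8 members were called higher and 2 lower in sh-APP against control (24% and 26.8% of all tested genes). In anti-Abeta against control 6 were called higher and 1 lower (9.07% and 15% of all). In sh-APP against anti-Abeta 4 were called higher and 4 lower (9.3% and 16.1% of all). Among the members, the block removed the calls of Itga3, Itgb5 and Itga7, 1 in each comparison, and added Itga5 in the last. The numbers share no stated origin. Deviations of same-numbered sh-APP and anti-Abeta libraries correlated at 0.105, 0.098 and -0.0056, and sh-APP replicate 3 correlated best with another number. Crossed pairs of numbers 1 and 2 correlated at -0.101 (sh-APP 1 with anti-Abeta 2) and -0.108 (sh-APP 2 with anti-Abeta 1). Whether the numbers mark a shared origin was not tested.

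Signs that turned belonged to members with no call in that comparison. In sh-APP against control the log2 difference became 0.12 for Itga6, 0.0040 for Itgav, 0.041 for Itgb8, 0.036 for Lamb3 and 0.18 for Nid2 with library totals, and 0.0063 for Itga6 and 0.059 for Nid2 with upper-quartile factors. In anti-Abeta against control library totals gave 0.031 for Itga6, 0.011 for Itgb8, 0.093 for Lama4 and 0.060 for Nid1. In sh-APP against anti-Abeta library totals gave 0.025 for Itga3, 0.0072 for Itga9 and 0.030 for Itgb8, and upper-quartile factors gave 0.012 for Itga3 and 0.013 for Itgb8. Leaving out libraries gave -0.16 to 0.029 for Itga6, -0.32 to 0.024 for Lamb3 and -0.043 to 0.016 for Nid2 in sh-APP against control. It gave -0.21 to 0.0065 for Itga6, -0.18 to 0.074 for Lama4 and -0.039 to 0.31 for Lamb3 in anti-Abeta against control. In sh-APP against anti-Abeta it gave -0.034 to 0.068 for Dag1, -0.18 to 0.17 for Itga3, -0.085 to 0.13 for Itga6, -0.20 to 0.042 for Itga9 and -0.11 to 0.053 for Itgb8. Of 1708 recomputed log2 fold changes of named genes, 1556 kept their direction and their side of the threshold. The counts of called members are not among these values. Depth limits the 13 members under 1 CPM, where 3 counts correspond to 0.0611 to 0.0856 CPM.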
